A study of Mus musculus with 6 samples.

Results

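The sarcomeric myosin heavy chains are the motor subunits of the thick filament in striated muscle. The 8 genes described here (Myh1, Myh2, Myh3, Myh4, Myh6, Myh7, Myh7b and Myh8) were taken by their symbols from the 23367 gene entries of the deposited table, and all 8 were found and passed the filter on low counts. They were followed through 6 libraries of polyadenylated RNA from the gastrocnemius, a calf muscle, of wild-type FVB mice. The E18.5 library was a pool of male and female fetuses and the PN2 library a pool of male pups. PN14 had 2 libraries, each from a single male mouse, and PN28 and the adult (22 weeks) had 1 library from a male mouse each. There was no treatment and no altered genotype, so the comparisons are between ages. No stage other than PN14 was replicated, so for E18.5, PN2, PN28 and the adult a value is that of 1 library, and E18.5 also differs from the later stages in sex. In whole muscle, fewer fibers of a type and less of a message per fiber cannot be told apart.

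A myosin heavy chain has a motor head that splits ATP and a long tail through which the molecules pack into the filament. Each muscle fiber is named after the heavy chain it uses, and the chain largely sets how fast the fiber shortens. Myh3 encodes the embryonic chain and Myh8 the perinatal one, Myh2, Myh1 and Myh4 encode the fast chains of type IIa, IIx and IIb fibers, and Myh7 encodes the slow type I chain, which is also the beta chain of the heart. Myh6 encodes the alpha chain of the heart, and Myh7b is an ancient relative that is best known as the host gene of a microRNA. In rodents the limb muscles are built with the developmental chains and replace them with the adult chains after birth.

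In these libraries, the developmental chains held 90.7% of the summed FPKM of the 8 genes at E18.5 and 89.8% at PN2, and 0.199% and 0.621% in PN14 replicates 1 and 2. The adult fast chains went from 3.46% and 5.13% to 95.1% and 94.9% over the same libraries, and then to 98.6% at PN28 and 99.0% in the adult. Myh8 was the leading heavy chain before PN14 and Myh4 from PN14 on. FPKM is the authors' number of fragments scaled to the length of the gene model and to the library total, so levels of different genes can be set side by side in it. A share of the summed FPKM does not depend on how the libraries are scaled against each other.

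The genes lie in 3 places of the mm9 genome. On chromosome 11, Myh3 (chr11:66891802-66915793), Myh2 (chr11:66984529-67011019), Myh1 (chr11:67013554-67038078), Myh4 (chr11:67051314-67073948) and Myh8 (chr11:67090626-67122136) follow each other on the plus strand. Myh3 is set apart by a gap of 68.7 kb, while Myh2 and Myh1 are only 2.53 kb apart. On chromosome 14, Myh6 (chr14:55560758-55585764) and Myh7 (chr14:55589525-55613471) sit 3.76 kb apart on the minus strand, with Myh7 first in the direction of transcription. Myh7b stands alone on the plus strand (chr2:155436948-155460043). In GENCODE the 8 genes have between 39 and 42 exons and between 5808 and 5829 coding bases. The order of the genes along chromosome 11 was not the order of their levels at E18.5. Myh8, at the far end, and Myh3, at the near end, were the pair that led there.

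A value belongs to 1 of these genes as far as the reads tell them apart, and a stretch from near the start of the coding sequence shows where they differ most on chromosome 11. It was picked by a script as the 60-base window with the most differences summed over all pairs of these genes. Capitals mark a base that differs from Myh8.
Myh8: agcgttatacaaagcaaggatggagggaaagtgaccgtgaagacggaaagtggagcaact
Myh3: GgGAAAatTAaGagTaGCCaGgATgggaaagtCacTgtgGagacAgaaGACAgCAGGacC
Myh1: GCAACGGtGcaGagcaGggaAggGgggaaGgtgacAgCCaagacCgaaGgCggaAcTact
Myh2: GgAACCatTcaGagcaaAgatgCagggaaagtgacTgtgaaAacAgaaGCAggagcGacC
Myh4: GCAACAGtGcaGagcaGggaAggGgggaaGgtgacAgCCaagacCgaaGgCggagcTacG
The window covers coding bases 154 to 213 of Myh8, in exons 3 and 4 (chr11:67092512-67093394, with an intron in between). Of its 60 bases, 28 differ in Myh3, 21 in Myh1, 17 in Myh2 and 21 in Myh4. Elsewhere the genes are far closer. Over the whole coding sequence Myh1 had 91.1% identical bases with Myh2 and 90.2% with Myh4, and Myh8 had 89.3% with each of Myh1 and Myh2. Myh1 and Myh2 share an unbroken stretch of 268 identical bases in exons 23 and 24.

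Myh7 and Myh6 are the closest pair of the 8, with 91.7% identical coding bases. The window that tells them apart best is shown for that reason, with capitals for bases of Myh6 that differ from Myh7.
Myh7: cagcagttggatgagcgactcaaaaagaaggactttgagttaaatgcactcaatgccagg
Myh6: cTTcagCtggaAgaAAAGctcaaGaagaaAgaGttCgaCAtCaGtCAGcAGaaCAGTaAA
Here 27 of the 60 bases differ (coding bases 3220 to 3279 of Myh7, exons 26 and 27, chr14:55599215-55601028). The reads were 100 bases long from each end, so windows of 100 bases were counted along each transcript. Of these, 11.5% in Myh6 and 11.2% in Myh7 also occur in the other gene of the pair. Among the rest, the share found in any other of the 8 genes was 9.46% for Myh1, 9.17% for Myh2, 5.17% for Myh8, 3.85% for Myh4 and 0 for Myh3 and Myh7b. Low values of one of these genes beside a high value of its neighbor are therefore the least certain, since RSEM divides shared fragments by estimate.

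**Figure D1:**
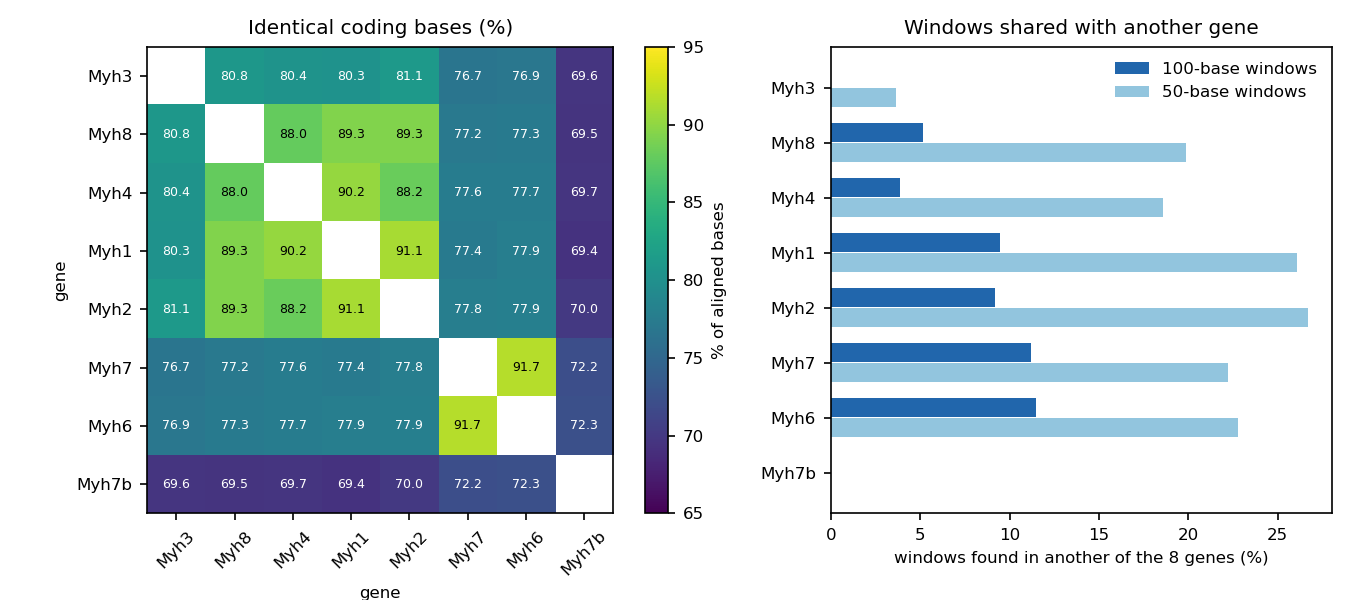
Left, percent of aligned coding bases that are identical for each pair of the 8 genes. Right, percent of windows along each transcript (100 bases, dark; 50 bases, light) that also occur in another of the 8. Myh3 and Myh7b have no shared 100-base window, while Myh6 has 11.5% and Myh7 11.2%.

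The start regions of Myh8, Myh1, Myh2 and Myh4 hold a stretch of letters in common, shown because 3 of these genes had higher and 1 had lower levels after PN2. The 100 bases below were taken from the RefSeq promoter windows (250 bases before to 50 after each start, table of GRCm38.p6) and placed on the plus strand of mm9 by an exact match. Capitals mark the longest run shared by all 4 genes and, before it, matches to the MEF2 box.
Myh8: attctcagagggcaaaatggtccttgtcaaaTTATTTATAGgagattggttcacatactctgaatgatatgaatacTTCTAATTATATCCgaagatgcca
Myh1: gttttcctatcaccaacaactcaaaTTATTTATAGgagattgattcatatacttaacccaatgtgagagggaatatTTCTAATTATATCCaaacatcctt
Myh2: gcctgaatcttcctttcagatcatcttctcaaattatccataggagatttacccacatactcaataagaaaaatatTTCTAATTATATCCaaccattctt
Myh4: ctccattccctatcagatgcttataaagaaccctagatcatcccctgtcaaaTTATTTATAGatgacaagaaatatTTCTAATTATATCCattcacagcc
These are chr11:67090496-67090595 for Myh8, chr11:67013368-67013467 for Myh1, chr11:66984328-66984427 for Myh2 and chr11:67051080-67051179 for Myh4. The shared run, TTCTAATTATATCC, has 14 bases and starts 54 bases before the start of Myh8, 160 before that of Myh1, 125 before that of Myh2 and 158 before that of Myh4. Searched on both strands of the 32851 RefSeq promoter windows, it occurred in these 4 (0.0122%) and in no other. The run was found by comparing these 4 windows, which were picked after their letters were seen, so its absence elsewhere is a description and no test.

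MEF2 proteins are transcription factors of muscle that bind an AT-rich box. The MEF2 box was found in Myh8, Myh1 and Myh4, with the same letters in each (TTATTTATAG), 99, 211 and 182 bases before their starts, and 3.19% of all promoter windows hold one. In the 3 genes it contains a TATAAA on the other strand. Counted on both strands, TATAAA was found in 6 of the 8 genes, in Myh8 only within the MEF2 box, and in 13.6% of all windows. Matches began 29, 32 and 31 bases before the starts of Myh3, Myh1 and Myh4. In Myh2 and Myh6 the match began after the start, by 10 bases and by 1. CANNTG, the E-box bound by MyoD and its relatives, was found in 6 of the 8 and in 72.3% of all windows. CATTCC, the core of the MCAT element bound by TEAD factors, was found in 4 of the 8 (Myh1, Myh4, Myh7 and Myh6) and in 14.7% of all windows. The CArG box, bound by SRF, was found in Myh4 alone, and 1.63% of all windows hold it. Of the 4 genes with the shared run, Myh8, Myh1 and Myh4 held the MEF2 box and Myh2 did not. The part of these letters in the levels was not tested.

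The 6 libraries held between 125402932 and 157868359 expected counts on genes, so 3 counts correspond to between 0.019 and 0.0239 CPM. The lowest member value was that of Myh8 in the adult, with 217 expected counts. The tissue label was checked against marker genes. The 5 skeletal muscle markers (Ckm, Acta1, Des, Ryr1 and Cacna1s) summed to between 17550 and 59730 FPKM, and the 7 heart markers to between 0.69 and 2.59 FPKM, with Nkx2-5 at 0 in every library but E18.5 (0.01 FPKM). Markers of other cells moved with age. The 3 satellite cell markers summed to 59.6 FPKM at E18.5 and 6.82 in the adult. From PN2 to PN14, 2 of them were called as falling, where 23.0% of all genes tested were called. The 3 fibroblast markers summed to 3910 FPKM at E18.5 and 91.3 in the adult, the 3 red blood cell markers to 8423 and 370 FPKM, and the 3 smooth muscle markers to 253 and 28.9 FPKM. Between these stages 3 of 3 fibroblast, 3 of 3 red blood cell and 2 of 3 smooth muscle markers fell, as did all 3 satellite cell markers. Of all genes tested, 44.9% were called over that span. From PN2 to PN14 no fibroblast, red blood cell or smooth muscle marker was called with TMM. With library size alone 3 fibroblast markers and 1 smooth muscle marker were called as falling, as were 4971 of the 16882 genes tested. The part of these cells in the results below was not tested.

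The 8 genes together took a growing part of the libraries. Their counts made up 2.53% of all counts on genes at E18.5, then 3.10% at PN2, 5.80% and 5.53% for the PN14 mice, 6.60% at PN28 and 7.76% for the adult. The 95% Wilson intervals of these shares, which cover counting error only, reached at most from 7.756% to 7.764%. In summed FPKM the family stood at 4172.5, 5091, 9656, 9218, 10992 and 12934 in the same order. Myh8 was the 9th most abundant gene of the table at PN2, and Myh4 was the 10th at PN28 and in the adult.

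**Figure D2:**
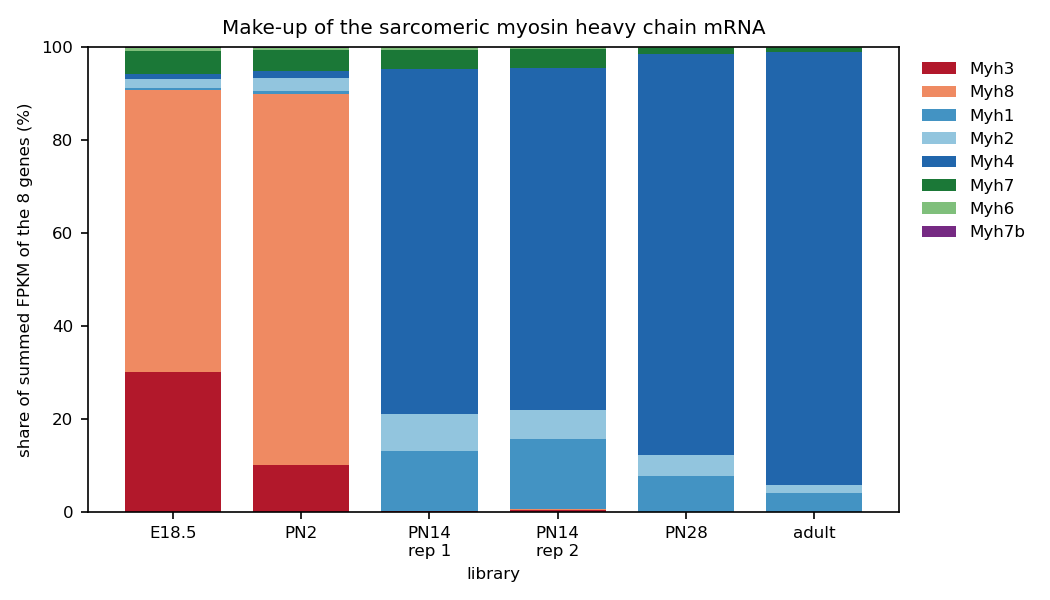
Share of the summed FPKM of the 8 genes (vertical axis, percent) in each of the 6 libraries (horizontal axis), one color per gene. Myh8 and Myh3 fill 90.7% and 89.8% of the first 2 bars, and Myh4 fills between 73.7% and 93.2% of the last 4.

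For tests, the expected counts were normalized with edgeR's TMM factors and compared with its quasi-likelihood test, and a gene was called at a Benjamini-Hochberg adjusted p under 0.05 and a change of at least 2-fold. Log2 fold changes and their standard errors (SE) are from this fit unless another is named. The spread of the PN14 pair stands for every stage in this test. The TMM factors were 1.45 at E18.5 and PN2 and down to 0.714 in the adult. When the libraries were scaled by size alone, the median over all genes moved from -0.012 to -0.66 between PN2 and PN14 and from -0.053 to -1.08 between E18.5 and the adult. FPKM carries the same shift. Between PN2 and PN14, 6 of the 8 genes were called, 3 up and 3 down, where 23.0% of all genes tested were called (1988 up and 1896 down, and 854 up and 4971 down with library size alone). Between E18.5 and the adult, 6 of the 8 were called, where 44.9% of all genes were. No member was called between E18.5 and PN2, where 0.0296% of all genes were, between PN14 and PN28 (0.0178%), or in the last interval, PN28 to adult (0.521%). Before adjustment, 0, 5 and 1 members had a p under 0.05 in these 3 intervals, as did 1121, 1420 and 3091 of the 16882 genes tested. DESeq2's Wald test called 0, 3 and 1 members in them (164, 135 and 817 of all genes tested). The exact test of edgeR called 0, 4 and 2 members (346, 241 and 1146 of all genes tested).

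A count without a test gave a like picture from PN2 to PN14. It did not from PN14 to PN28, where the quasi-likelihood test called no member. On normalized CPM plus 0.1, all 8 genes differed by at least 2-fold between PN2 and PN14 (6 with library size alone), against 26.9% of the 13304 genes that reached 1 CPM in either stage. Between PN14 and PN28 the count was 5 of 8, against 3.35% of 12935 such genes. The PN14 replicates themselves differed by at least 2-fold for 2 of the 8, Myh3 and Myh8, against 2.74% of the 12933 genes that reached 1 CPM in either mouse.

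**Figure D3:**
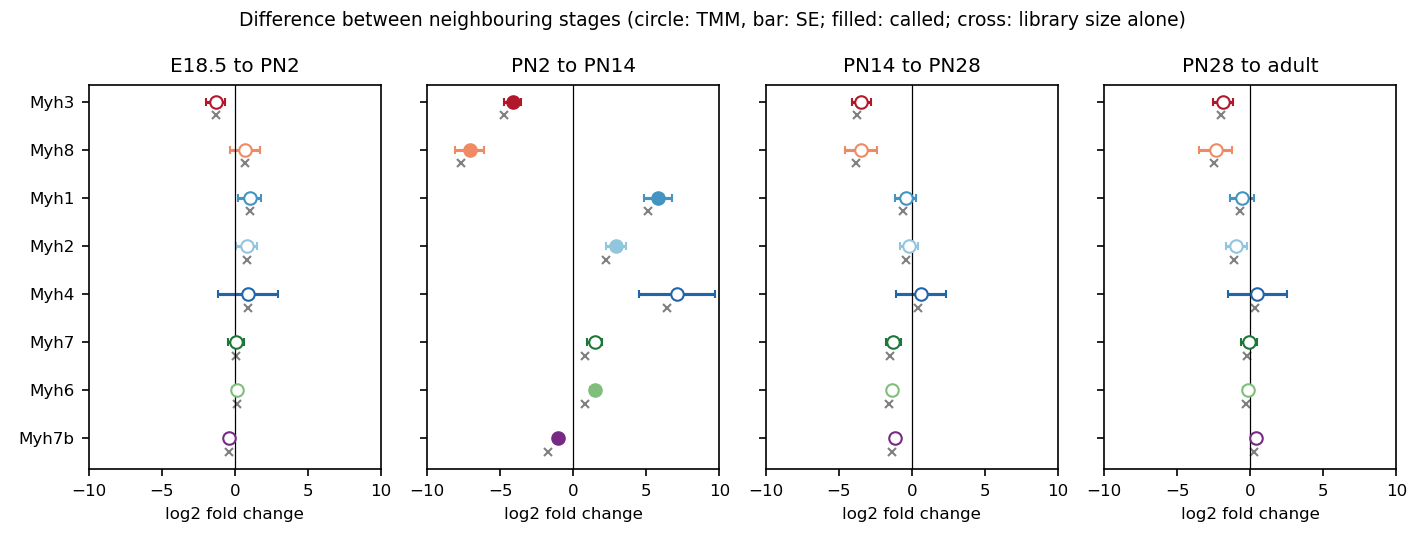
Log2 fold change of each gene (rows) over the 4 intervals between neighboring stages (panels). Circles are the TMM fit with its SE as a bar, filled where called, and crosses are the fit with library size alone. The filled circles all lie in the PN2 to PN14 panel, and Myh4 has the widest bar there (SE 2.58).

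Myh3, the embryonic chain, had 1252 FPKM at E18.5, then 508 at PN2, 10.9 and 26.2 for the PN14 mice, 1.41 at PN28 and 0.35 for the adult. It was highest in the youngest library and lower at each later stage, and its 2 PN14 values lie far from both neighbors. From PN2 to PN14 it fell by 4.16 on the log2 scale (SE 0.556, adjusted p = 0.00703), and between E18.5 and the adult by 10.8 (SE 0.978, adjusted p = 0.00129). Its log2 fold change was -1.30 from E18.5 to PN2 (SE 0.655, adjusted p = 0.865), -3.45 in the step to PN28 (SE 0.675, adjusted p = 0.360) and -1.87 in the step to the adult (SE 0.679, adjusted p = 0.230), none of which passed. With library size alone all 3 were called, and the last 2 also were by the Wald test and by edgeR's exact test. In the adult it still had 296 expected counts.

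Myh8, the perinatal chain, had 2530.2 FPKM at E18.5, then 4065 at PN2, 8.25 and 31.05 for the PN14 mice, 1.41 at PN28 and 0.25 for the adult. Unlike Myh3, it was highest at PN2. From E18.5 to PN2 its log2 fold change was 0.68 (SE 1.05, adjusted p = 0.995) and did not pass. From PN2 to PN14 it fell by 7.10 on the log2 scale (SE 1.005, adjusted p = 0.00784), and between E18.5 and the adult by 12.3 (SE 1.68, adjusted p = 0.00270). Without PN14 replicate 1 the PN2 to PN14 value was -6.50, and without replicate 2 it was -8.15. Its later log2 fold changes, -3.50 and -2.36, did not pass (adjusted p = 0.548 and 0.337), but were called with library size alone and by edgeR's exact test. Its highest level was 16259 times its lowest in FPKM, against 3578 times for Myh3.

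The developmental pair therefore changed in make-up before it was lost. Myh3 held 30.0% of the family FPKM at E18.5 and 9.98% at PN2, while Myh8 went from 60.6% to 79.8%. The ratio of Myh8 to Myh3 was 2.02 at E18.5 and 8.003 at PN2, and later lay between 0.714 and 1.18, where both genes were low. Neither gene's own change between E18.5 and PN2 passed the test, and the ratio was not tested, as each of these stages had 1 library.

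The PN14 mice differed most in these same 2 genes. Replicate 2 exceeded replicate 1 by 1.26 on the log2 scale of FPKM for Myh3 and by 1.91 for Myh8, while the other 6 genes differed by between -0.39 and 0.15. The developmental share of the family was 0.410% ± 0.299 (SD, n = 2) at PN14. With replicate 1 alone it would be 0.199%, and with replicate 2 alone 0.621%. At PN14 Myh3 (18.6 ± 10.8 FPKM, SD, n = 2) and Myh8 (19.7 ± 16.1) could not be put in order, since replicate 1 had more Myh3 and replicate 2 more Myh8. Replicate 2 also had the higher summed FPKM of satellite cell markers (17.6 against 11.4), of fibroblast markers (1146 against 919) and of smooth muscle markers (224 against 107). It had the lower sum of red blood cell markers (1153 against 2092) and of skeletal muscle markers (45999 against 58059). No TMM factor (0.841 for replicate 1 and 1.006 for replicate 2) was applied to these sums. The part of these cells in the difference was not tested.

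**Figure D4:**
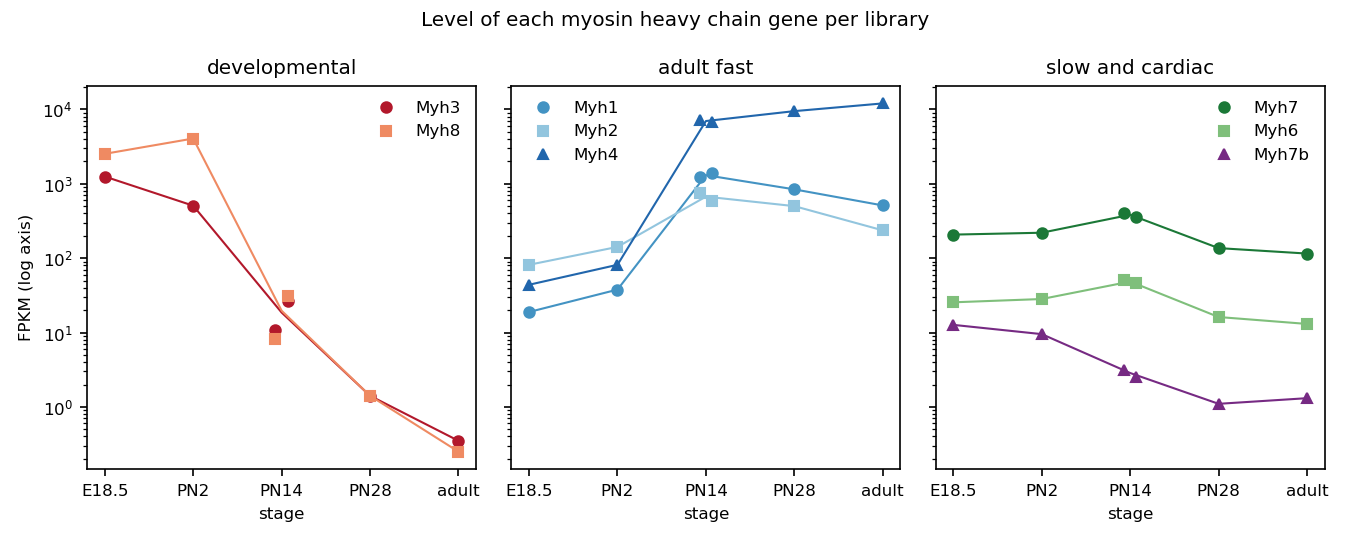
FPKM (log axis) of the 8 genes by stage, in 3 panels by class, with each library as a point (the 2 PN14 libraries side by side) and lines through the stage means. Myh3 and Myh8 drop from 508 and 4065 FPKM at PN2 to 0.35 and 0.25 in the adult, and Myh4 climbs from 81.4 to 12055.

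Myh4, the chain of the fastest type IIb fibers, had 43.9 FPKM at E18.5, then 81.4 at PN2, 7179 and 6791 for the PN14 mice, 9492 at PN28 and 12055 for the adult. All later values lie far above the first 2. PN14 replicate 2 differed from replicate 1 by -0.08 on the log2 scale of FPKM and by -0.339 on that of TMM-normalized CPM. Its share of the family was 1.05% at E18.5, 1.60% at PN2, 74.0% ± 0.477 (SD, n = 2) at PN14, 86.4% at PN28 and 93.2% for the adult. Its PN2 to PN14 log2 fold change was 7.09, about as large in size as that of Myh8, yet with an SE of 2.58 and an adjusted p of 0.0832 it was not called. edgeR's quasi-dispersion, a factor by which the test scales the variance of its fitted model, was 18.9 for Myh4 and between 0.804 and 5.73 for the other members. The biological coefficient of variation, edgeR's estimate of the relative spread of a gene between mice, did not set Myh4 apart. It was 0.218 for Myh4 and between 0.178 (Myh7b) and 0.360 (Myh8) for the other members. The change was called by the Wald test of DESeq2 (adjusted p = 9.83e-133), by edgeR's exact test, with library size alone and with no filter on low counts (adjusted p = 0.0267), and was not with DESeq2's size factors (0.0746) or a filter on a mean of 1 CPM (0.0661). Between E18.5 and the adult the log2 fold change of 9.13 (SE 2.87, adjusted p = 0.0385) was called. The changes after PN14, 0.66 to PN28 and 0.48 from there to the adult, did not pass (adjusted p = 0.927 and 0.932).

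Myh1, the IIx chain, had 18.9 FPKM at E18.5, then 37.8 at PN2, 1238 and 1377 for the PN14 mice, 842 at PN28 and 512 for the adult. It was highest at PN14, where the values of both mice lie above those of all other stages. It rose by a log2 fold change of 5.77 from PN2 to PN14 (SE 0.967, adjusted p = 0.0114) and of 5.79 between E18.5 and the adult (SE 0.997, adjusted p = 0.00530). The later differences, -0.40 to PN28 and -0.58 to the adult, did not pass (adjusted p = 0.880 and 0.750). Of the family it held 13.9% ± 1.497 (SD, n = 2) at PN14, then 7.66% at PN28 and 3.96% for the adult.

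Myh2, the IIa chain, had 81.5 FPKM at E18.5, then 142 at PN2, 763 and 582 for the PN14 mice, 501 at PN28 and 237 for the adult. It was the most abundant of the 3 fast chains at E18.5 and PN2 and the least abundant of them from PN14 on. It rose by a log2 fold change of 2.93 from PN2 to PN14 (SE 0.712, adjusted p = 0.0292) and of 2.56 between E18.5 and the adult (SE 0.745, adjusted p = 0.0299). Its log2 fold change was -0.22 to PN28 and -0.94 from there to the adult, and neither passed (adjusted p = 0.935 and 0.538), though the second was called with library size alone. The first turned to 0.14 without PN14 replicate 1, so its direction rests on that mouse.

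Among the fast chains the lead of Myh4 was larger in every library after PN2. Myh4 had 2.32 and 2.16 times the FPKM of Myh1 at E18.5 and PN2, 5.80 and 4.93 times at PN14, 11.3 times at PN28 and 23.5 times in the adult. Against Myh2 it went from 0.539 and 0.574 times to 9.41 and 11.7 times at PN14, 18.9 times at PN28 and 50.9 times in the adult. Each later step, to PN28 and on to the adult, is larger than the gap between the PN14 replicates. The ratios are between genes of the same library and so do not depend on the scaling. The ratio of Myh1 to Myh2 was 0.232 and 0.267 at E18.5 and PN2, then 1.62 and 2.37 for the PN14 mice, 1.68 at PN28 and 2.16 for the adult, where the later values lie within the span of the PN14 pair.

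Myh7, the slow chain, had 207 FPKM at E18.5, then 220 at PN2, 403 and 363 for the PN14 mice, 137 at PN28 and 115 for the adult. Its range was the narrowest of the 8 genes, with a highest stage 3.32 times its lowest. Its log2 fold change from PN2 to PN14 was 1.47 (SE 0.515, adjusted p = 0.0753), which did not pass in the quasi-likelihood test and passed in the Wald test of DESeq2 (adjusted p = 8.69e-06) and in edgeR's exact test (adjusted p = 9.06e-04). With library size alone it was 0.80, under 2-fold, and was not called. From PN14 to PN28 it was -1.27 (SE 0.509, adjusted p = 0.593), which was called by the Wald test and with library size alone. Between E18.5 and the adult it was 0.18 (SE 0.554, adjusted p = 0.801) and turned to -0.85 with library size alone, so these libraries give it no direction over that span. As a share of the family, Myh7 held 4.97% at E18.5, 4.32% at PN2, 4.06% ± 0.168 (SD, n = 2) at PN14, then 1.24% at PN28 and 0.892% for the adult. Up to PN14 the share of Myh7 lay between 3.94% and 4.97% in each library, while the leading genes of the family were exchanged.

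Myh6, the alpha chain of the heart, had 25.5 FPKM at E18.5, then 28.2 at PN2, 51.3 and 45.7 for the PN14 mice, 16.2 at PN28 and 13.05 for the adult. These values follow Myh7 library by library, with a ratio of Myh6 to Myh7 of between 0.113 and 0.128 in all 6. The highest ratio was 1.13 times the lowest, where the ratio of Myh7b to Myh7 spanned 8.71 times. The share of Myh6 windows of 100 bases that also occur in Myh7, 11.5%, is given beside it, and the part of shared fragments in the Myh6 values was not tested. The heart markers stayed at or under 2.59 FPKM in sum. Myh6 was called from PN2 to PN14 (log2 fold change 1.45, SE 0.293, adjusted p = 0.0180), but with library size alone the value was 0.78 and no longer called. To PN28 its log2 fold change was -1.37 (SE 0.292, adjusted p = 0.411), called by the Wald test, the exact test and with library size alone. Its E18.5 to adult value, 0.06, turned to -0.97 with library size alone and to -0.02 with a filter on a mean of 1 CPM.

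Myh7b had 12.7 FPKM at E18.5, then 9.52 at PN2, 3.16 and 2.55 for the PN14 mice, 1.10 at PN28 and 1.31 for the adult. It fell by 1.06 on the log2 scale from PN2 to PN14 (SE 0.252, adjusted p = 0.0274) and by 2.25 between E18.5 and the adult (SE 0.315, adjusted p = 0.00285). The PN2 to PN14 value was -0.80 without PN14 replicate 2, which is under 2-fold, and -1.74 with library size alone. From PN14 to PN28 its log2 fold change was -1.16 (SE 0.277, adjusted p = 0.451), which did not pass. That step was called by edgeR's exact test and with library size alone. From PN28 to the adult it was 0.38 (adjusted p = 0.567) and did not pass. Myh7b shares no 100-base window with the other 7 genes.

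The slow and cardiac genes carry microRNAs in their introns. The precursor of miR-208a lies in intron 29 of Myh6 (chr14:55567897-55567979), that of miR-208b in intron 31 of Myh7 (chr14:55594537-55594613) and that of miR-499 in intron 19 of Myh7b (chr2:155448616-155448694). Their mature sequences from RefSeq (GRCm38.p6) are shown with the seed, bases 2 to 8, in capitals.
miR-208a-3p: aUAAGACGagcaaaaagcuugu
miR-208b-3p: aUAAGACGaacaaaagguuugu
miR-499-5p: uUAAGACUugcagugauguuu
The first 2 share the seed UAAGACG, and the seed of miR-499-5p, UAAGACU, differs from it in its last base. The table lists all 3 microRNA genes with 0 counts in every library, which allows up to 3 counts, or 0.0239 CPM in the smallest library. Mature microRNAs have no poly(A) tail and were not captured by these libraries, so the host genes' levels say nothing measured of them.

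Of a list of 7 other class II myosin heavy chains, 6 were in the table and were tested. From PN2 to PN14, 1 of them was called, against 23.0% of all genes tested. This was Myh10, a nonmuscle chain, which fell by 1.08 on the log2 scale (SE 0.183, adjusted p = 0.0118). The highest value of the list was that of Myh15 (0.78, adjusted p = 0.326), which did not exceed 0.03 FPKM. Myh13, the extraocular chain that follows Myh8 on chromosome 11, stayed between 0.02 and 0.25 FPKM. The median of the list was 0.33 and turned to -0.32 with library size alone.

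The partners of myosin in the thick filament were read from a list of 13 genes. From PN2 to PN14, 4 rose, 2 fell and 7 were not called, where 23.0% of all genes tested were called. Their median was 1.39 against -0.012 for all genes. Mybpc2, the fast form of myosin-binding protein C, had the highest log2 fold change. It had 46.8 FPKM at E18.5, then 83.5 at PN2, 1851 and 1161 for the PN14 mice, 2059 at PN28 and 1735 for the adult, and rose by 4.87 on the log2 scale from PN2 to PN14 (SE 1.04, adjusted p = 0.0209). Myl4, a light chain of embryonic muscle and of the atrium, had the lowest. It had 814, 534, 8.79, 17.2, 5.65 and 4.20 FPKM in the order of the libraries, and fell by 4.73 (SE 0.331, adjusted p = 0.00301). The order of the PN14 replicates was that of Myh3. After PN14 it stayed above Myh3, which had 1.41 FPKM at PN28 and 0.35 in the adult.

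Of 7 fast fiber genes, 3 rose, none fell and 4 were not called from PN2 to PN14, where 23.0% of all genes tested were called. Their median was 3.04. All 7 were called as rising with library size alone, as were 854 of the 16882 genes tested. Pvalb, the calcium buffer parvalbumin, had the highest value, with 71.3 and 93.7 FPKM at E18.5 and PN2, 20739 and 14166 for the PN14 mice, 18188 at PN28 and 14304 for the adult (log2 fold change from PN2 to PN14 8.23, SE 1.62, adjusted p = 0.0167). The lowest was that of Tnnc2, the fast troponin C (2.01, SE 1.12, adjusted p = 0.210). Of 5 developmental muscle genes, 4 fell and 1, Actc1, was not called, with a median of -3.49. Myl4 had the lowest value here too. Actc1, the cardiac alpha-actin of young muscle, left the pattern of Myh3 and Myh8, with 2201 FPKM at PN2, 2166.2 and 3465 for the PN14 mice, 2864 at PN28 and 11.1 for the adult, so that the developmental actin was still high at a stage when the developmental myosins were at 1.41 FPKM each.

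Of 8 slow fiber genes, 2 rose, 1 fell and 5 were not called from PN2 to PN14, where 23.0% of all genes tested were called. Their median was 0.78 and came to 0.10 with library size alone. Myl3, a slow light chain, had the highest value (1.95, SE 0.448, adjusted p = 0.0248), with 307, 315, 895, 621, 334 and 258 FPKM in the order of the libraries. It was highest at PN14, as Myh7 was. Casq2, the slow and cardiac calsequestrin, had the lowest (-2.05, SE 0.285, adjusted p = 0.00763).

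The 20 regulators of myosin genes, transcription factors and their partners named in textbooks of fiber type, had smaller fold changes than most of the myosins. From PN2 to PN14, 3 rose, 1 fell and 16 were not called, a share near the 23.0% of all genes tested that were called, and the median was 0.09. With library size alone none rose and 5 fell, where 854 of the 16882 genes tested rose and 4971 fell, and 5 of the 20 changed sign. The highest value was that of Eya1, a transcriptional coactivator (1.27, SE 0.203, adjusted p = 0.0102), with 2.57, 2.92, 4.45, 4.45, 4.38 and 7.88 FPKM. The lowest was that of Tead4 (-1.16, SE 0.226, adjusted p = 0.0163), with 13.1, 10.3, 2.29, 3.64, 1.22 and 1.07 FPKM. Over the span from E18.5 to the adult, 10 of the 20 rose and 4 fell, where 44.9% of all genes tested were called. With library size alone 2 of them rose and 6 fell, where 1347 of the 16882 genes tested rose and 7700 fell. These lists do not show which factor acts on which gene.

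**Figure D5:**
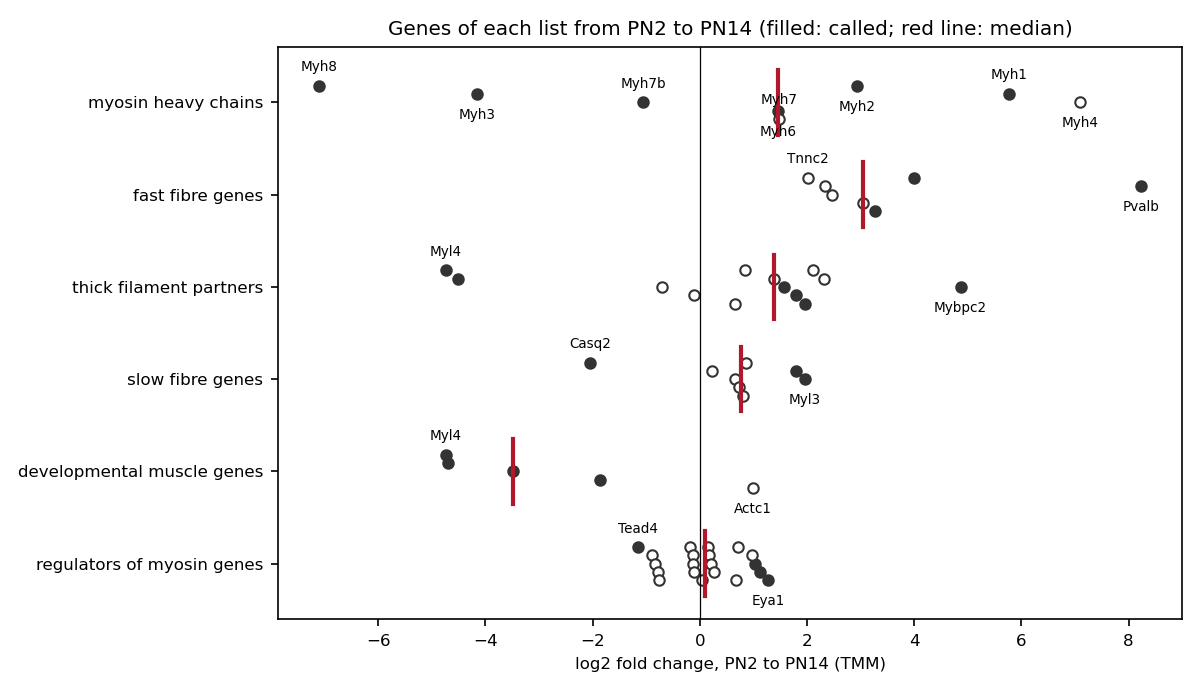
Log2 fold change from PN2 to PN14 with TMM (horizontal axis) for the genes of 6 lists (rows), filled where called, with the median of each list as a red line and the extreme genes named. The myosin heavy chains span from -7.10 (Myh8) to 7.09 (Myh4), while the regulators lie between -1.16 and 1.27, and 5 of the 20 regulators change sign with library size alone.

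The genes with the most similar profiles were found by the root mean square difference, over the 6 libraries, of log2 FPKM relative to each gene's own maximum (0.1 FPKM added), among 6919 genes that reached 10 FPKM. Nearest to Myh3 were Arhgap36 (0.633), Dlk1 (0.911) and Nrk (0.927). Dlk1, an imprinted membrane protein of growing tissues, had 746 FPKM at E18.5, then 615 at PN2, 8.70 and 30.0 for the PN14 mice, 2.77 at PN28 and 0.22 for the adult. Among genes outside the family, nearest to Myh8 were Arhgap36 (1.56), 1110059M19Rik (1.92) and Nrk (2.14), with Myh3 at 1.62. Even its closest profile lay further away than those of Myh3, Myh4, Myh1, Myh2 and Myh7. Arhgap36 had 325 and 328 FPKM at E18.5 and PN2 and 0.03 in the adult.

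Nearest to Myh4 were Nctc1 (0.311), Pvalb (0.464) and Tuba8 (0.508). Nctc1 had 0.02 FPKM at E18.5 and 50.2 in the adult, and Tuba8, an alpha-tubulin, had 0.49 FPKM at E18.5 and 158 in the adult. Nearest to Myh1 were Apol6 (0.558) and Rpl3l (0.571). Rpl3l, the muscle form of a ribosomal protein, had 319 and 374 FPKM at PN14 and 330.2 in the adult. Nearest to Myh2 were Hhatl (0.327), Casq1 (0.362) and Hist1h4h (0.397). Casq1, the calsequestrin of fast fibers, had 3604 and 3076 FPKM at PN14 and 1731 in the adult, and like Myh2 it was lower in the adult than at PN28, where it had 3422 FPKM. Nearest to Myh7 were Smtnl1 (0.255), Tnfrsf12a (0.279) and Ptger1 (0.280), apart from Myh6, which at 0.079 was the closest of all. With 1 FPKM added in place of 0.1, a choice made after seeing the data, 11 of the 18 nearest genes (3 for each of 6 members) were still among the nearest 3. Among the genes named, Apol6 left those of Myh1 and Nctc1 those of Myh4. Nrk left those of Myh3 and Myh8, Hist1h4h those of Myh2 and Ptger1 those of Myh7. At E18.5 these genes had 0.06, 0.02, 135, 4.11 and 5.82 FPKM in the order named. These likenesses rest on 6 libraries of the same muscle and describe a course in time, not a link between the genes.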

How the data were processed

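The authors sequenced polyadenylated RNA, aligned 100-base paired-end reads to mm9 with TopHat2 2.0.5 and used RSEM to count them on RefSeq models. Their deposited table gives, for each gene and library, an expected count, which is an estimated count and is not normalized, and an FPKM value, which the authors normalized to gene length and library total, with no further scaling between libraries. Genes were matched by symbol. The myosin members and the gene lists were chosen with earlier results of these data known.

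Counts rounded to whole numbers went into edgeR 4.0.16 under R 4.3.3 (TMM, filterByExpr by stage, 16882 genes kept, quasi-likelihood test, Benjamini-Hochberg adjustment over all genes tested), where 1 fit held all 6 libraries, grouped by the 5 stages. The SE is the log2 fold change divided by the square root of F. The fit had 1 residual degree of freedom, with 4.86 more from the prior, and the common biological coefficient of variation was 0.188. The column names give each of the 6 libraries its own library number and lane tag, so these cannot be told apart from stage, and p-values measure the spread of the PN14 pair, which differs in mouse and in tag. The test was tested on simulated data.

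All 8 members were named, the genes of each list with the highest and lowest log2 fold change from PN2 to PN14, and the 3 nearest profiles of 6 members, of which 1 gene is not reported here. The MEF2 box was a 10-base pattern with an AT-rich center and the CArG box 2 C, 6 A or T and 2 G. Coordinates came from the GENCODE annotation of mm9, coding identities and windows from its transcripts (Python 3.11.15, Biopython 1.88), and promoter and microRNA sequences from RefSeq. The alternatives were library size alone, DESeq2's size factors, DESeq2's Wald test (version 1.42.0), edgeR's exact test, no filter, a mean of at least 1 CPM, a pseudocount of 1 CPM, either PN14 replicate left out, counts in place of FPKM for the shares, and, chosen after seeing the data, 1 FPKM added in place of 0.1 for the profiles. Splicing was not analysed here, and protein sequences were not used here.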

Additional observations from a re-analysis of the deposited data

How the results depend on the processing

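In the 3 intervals other than PN2 to PN14, no member was called with TMM, but with library size alone 1 (Myh3) was called between E18.5 and PN2, 5 in the step to PN28 and 3 in the step to the adult. DESeq2's Wald test called 3 and 1 members in the last 2 of these intervals and edgeR's exact test 4 and 2. From PN2 to PN14 the count of 6 was 8 with either of these tests and 7 with no filter, and with library size alone it was again 6, with Myh4 called and Myh6 not. The 3884 calls over all genes in that interval became 3323 with the Wald test and 4664 with the exact test. They became 5825 with library size alone and 4183 of 19590 with no filter. Between E18.5 and the adult the count was 6 under every alternative tried. The 7584 calls over all genes for that span became between 6130 of 13117 (mean of at least 1 CPM) and 9047 of 16882 (library size alone). The E18.5 to adult log2 fold change turned to -0.846 for Myh7 and -0.965 for Myh6 with library size alone, and to -0.0201 for Myh6 with a mean of at least 1 CPM. The PN14 to PN28 value of Myh2 turned to 0.143 without PN14 replicate 1 and was -0.506 without replicate 2. In normalized CPM, Myh2 had 5483 and 3496 in PN14 replicates 1 and 2 and 3860 at PN28. The cause of the difference between the PN14 mice was not tested. Over both replicates left out, the developmental share at PN14 lay between 0.199% and 0.621%, the adult fast share between 94.9% and 95.1%, and the 2-fold count between 7 and 8 members from PN2 to PN14 and between 4 and 5 from PN14 to PN28. No paired analysis was possible because only PN14 has a second library. With a single library at 4 of the 5 stages, the spread at those stages is assumed and not measured, and leaving out a PN14 library leaves no residual degree of freedom, so those values carry no test. Over all genes, the 5, 3 and 88 calls in these 3 intervals became 241, 262 and 868 with library size alone, 164, 135 and 817 with the Wald test, 346, 241 and 1146 with the exact test, and 97, 56 and 835 with no filter. The last of them became 13 with a mean of at least 1 CPM.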
